A study of Homo sapiens with 6 samples.

Results

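A set of 50 genes of fatty acid handling was followed in the RNA of RL95-2 cells: the genes for uptake and intracellular transport, activation to acyl-CoA, storage as triglyceride in lipid droplets, release from the droplets, and oxidation in mitochondria and peroxisomes, together with PPAR receptors and PPAR response genes. All 50 were found by symbol among the 23228 genes of the count tables, 44 of them had reads in every library, and 40 had enough reads to be tested. RL95-2 is an established human endometrial carcinoma line, so both groups come from 1 line. In the control group (3 libraries) the cells were kept in serum-free RPMI mixed with an equal volume of DMEM, and in the ADP-CM group (3 libraries) the DMEM was replaced by the same volume of adipocyte-conditioned medium, in both cases for 24 h. ADP-CM is medium taken from cultured mature adipocytes of human visceral fat, and the labels do not say whether the 3 samples of a group came from separate cultures or separate batches of ADP-CM, so that p-values measure the spread between these samples, which may be technical. The comparison addresses how the RNA of carcinoma cells responds to medium conditioned by adipocytes. What the adipocytes released and what they took from the medium cannot be told apart in this design. Lipids in the medium and in the cells were not measured here.

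Fatty acids enter cells with the help of CD36 and the SLC27 transport proteins, are carried in the cytosol by FABP proteins, and are joined to coenzyme A by the ACSL enzymes. Acyl-CoA is then either built into triglyceride and stored in lipid droplets coated by perilipins, or passed through the carnitine shuttle into mitochondria and shortened by beta oxidation, whose electrons leave by way of the electron transfer flavoprotein. In many tissues fatty acids bind the PPAR receptors, and PLIN2, ANGPTL4, PDK4 and CPT1A are common readouts of that response.

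Reads assigned to genes numbered 16262614 in the smallest library and 18363033 in the largest. Levels are given as CPM, the reads of a gene divided by its library's total and scaled to a common total by TMM, with the SD over 3 libraries. Genes were compared with edgeR's quasi-likelihood test, and a gene was called higher or lower at a Benjamini-Hochberg adjusted p under 0.01 over all 12663 genes tested. Across all tested genes 26.5% were called, 13.5% higher and 13% lower in ADP-CM, and 2.27% were called with a fold change over 1.5, 1.14% in each direction. Most markers of adipocytes were nearly absent: 10 of 16, among them ADIPOQ and LEP, had no read in any library, and 14 of 16 had at most 3 reads in every library. The summed level of all 16 was 9.94 to 10.2 CPM in control and 9.98 to 12.2 CPM in ADP-CM, most of it CFD. CFD had 154 to 161 reads in control and 169 to 202 in ADP-CM, and SLC2A4 had 7 to 11 and 12 to 20. These 2 were tested and not called (log2 fold changes 0.14 and 0.72). Epithelial markers were present (5663 to 5819 CPM summed in control, 4965 to 5068 in ADP-CM), with 2 of 9 tested called higher and 5 lower. MUC1 (log2 fold change 1.27, at most 68 reads in any library) and PAX8 (0.28) were called higher. KRT19 (-0.85), CDH1 (-0.42), KRT8 (-0.36), CLDN4 (-0.14) and KRT18 (-0.13) were called lower, and EPCAM (0.01) and KRT7 (-0.05) were not called. Summed stromal markers were 68.7 to 75.2 CPM in control and 93.7 to 96.6 CPM in ADP-CM, with 2 of 3 tested called higher, and summed leukocyte markers 7.08 to 8.35 and 9.92 to 12.1 CPM, with 1 of 1 called higher. The stromal markers called higher were FAP (114 to 133 reads in control and 267 to 320 in ADP-CM) and COL1A1 (1005 to 1118 and 1376 to 1424). The leukocyte marker called higher was CD68 (115 to 136 and 176 to 214). The other stromal marker tested, COL3A1, had 19 to 47 reads and was not called (log2 fold change -0.01). LUM and PDGFRB of stroma had at most 7 reads in any library and CD14 of leukocytes at most 5. COL1A2 and DCN of stroma and PTPRC of leukocytes had at most 2, and THY1 and TYROBP had none. Summed endothelial markers were 60.9 to 67.1 CPM in control and 54.6 to 62.2 CPM in ADP-CM. Of these CDH5 alone was tested (985 to 1127 reads) and was not called. The part of the marker shifts in the results on fatty acid genes was not tested. All libraries come from cultures of 1 line, and by the published methods ADP-CM was passed through a syringe filter when it was collected. In RNA of whole cultures, fewer cells of a kind and less RNA per cell cannot be told apart.

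Of the 40 tested fatty acid genes 13 were called, 4 higher and 9 lower in ADP-CM. These are 32.5% of the genes tested, beside 26.5% of all genes. The share called higher was 10% beside 13.5%, and the share called lower 22.5% beside 13%. PLIN3, SLC27A4, ACSL4 and ACADVL rose, and ETFB, GPAM, LPIN2, MGLL, LIPE, ETFA, ECI1, CPT2 and HADH fell. The differences were small. Among the 13 the absolute log2 fold change ran from 0.08 to 0.62, the second largest was 0.29, and LIPE alone also passed a fold change of 1.5, as 2.27% of all genes did (1.14% lower). The median log2 fold change of the 40 genes was -0.05, against -0.00 over all tested genes, and the median absolute value 0.10 against 0.11. In 24 of the 40 genes (60%) the control and ADP-CM libraries did not overlap in CPM, 7 with ADP-CM above and 17 with ADP-CM below, beside 45.5% of all tested genes. For 36 of the 40, and for all 33 above 10 CPM in control, the 95% interval of the change lay within 1.5-fold either way. Calls of 5 genes (PLIN3, GPAM, LPIN2, MGLL and ETFB) stood in every one of 12 alternative analyses, which included DESeq2 in place of edgeR and the removal of each library in turn. The other 8 lost the call in at least 1 of them and are described with the setting that ended it. DESeq2 ended 7 of the calls, and with it the share of tested fatty acid genes called was no higher than that of all genes.

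**Figure D1:**
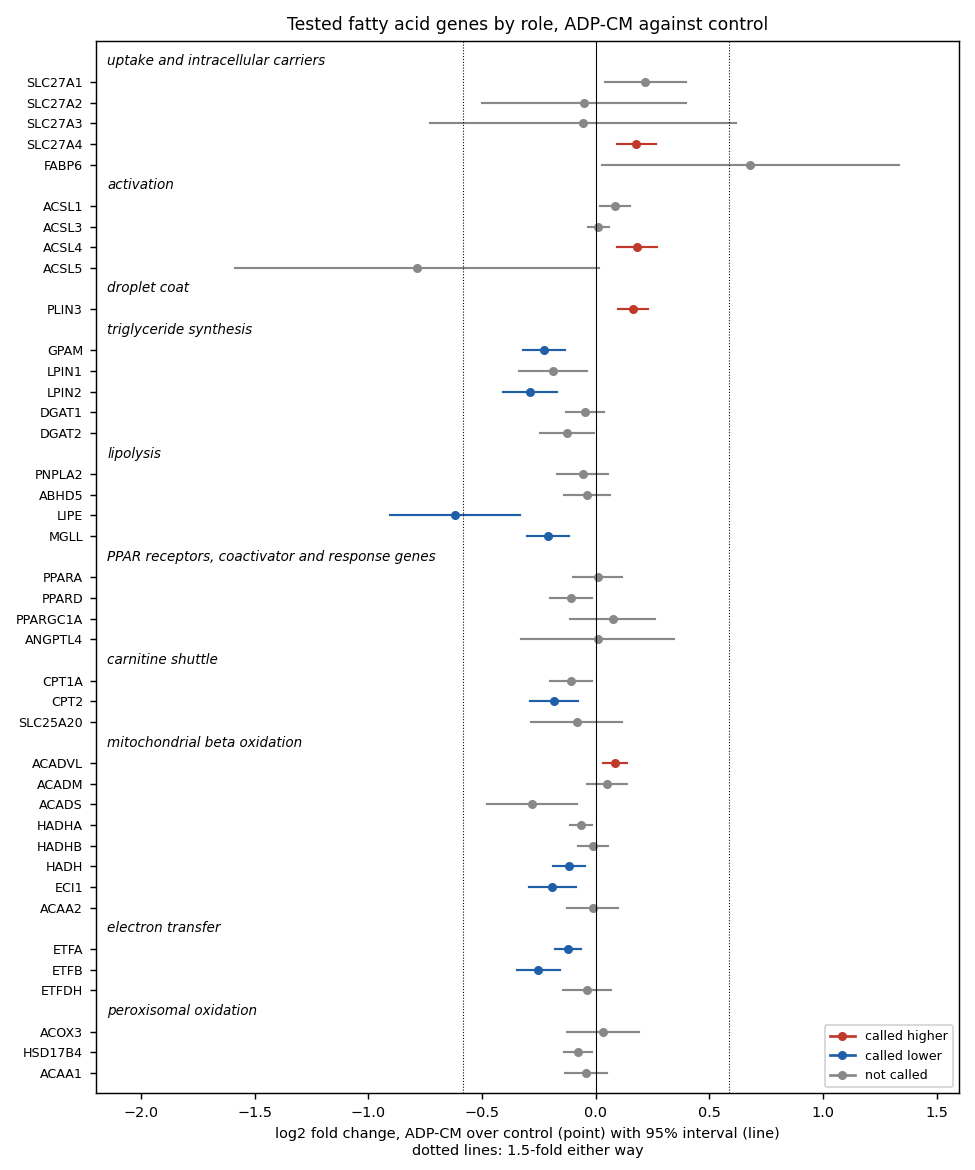
Log2 fold change of the 40 tested genes, ADP-CM over control (points), with 95% intervals (lines), grouped by role, and dotted lines at 1.5-fold either way. The 4 genes called higher belong to uptake, activation, droplet coat and beta oxidation, all 5 triglyceride synthesis genes and all 4 lipolysis genes lie below 0, and the intervals of genes with few reads (FABP6, SLC27A2, SLC27A3, ACSL5) are the widest.

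Of the genes for uptake and intracellular carriers, 1 of 5 tested was called (20%, beside 26.5% of all genes). This was SLC27A4, which encodes the fatty acid transport protein FATP4 (chromosome 9, 131102806 to 131123749, GRCh37). It had 1053, 957 and 1040 reads in control replicates 1, 2 and 3 and 1188, 1249 and 1335 reads in ADP-CM replicates 1, 2 and 3 (the same order is used for all reads below). With 3 libraries in each group here and below, its level rose from 60.8 ± 4.12 to 68.8 ± 3.53 CPM, which is a log2 fold change of 0.18 (SE 0.0427; edgeR quasi-likelihood test, Benjamini-Hochberg adjusted p = 0.000566). Every ADP-CM library lay above every control library. The call was lost with DESeq2 and without control replicate 2, where the log2 fold change was 0.13. SLC27A1, the transporter FATP1 known from muscle and fat, had 168, 178 and 176 reads in control and 217, 233 and 213 in ADP-CM. The libraries did not overlap here either, with 10.4 ± 0.13 and 12.1 ± 0.57 CPM and a log2 fold change of 0.22, but the gene missed the threshold (edgeR adjusted p = 0.048). SLC27A2 and SLC27A3 had 9 to 41 reads per library and overlapping groups. FABP6, the ileal bile acid binding protein, had 11, 9 and 13 reads in control and 22, 22 and 14 in ADP-CM, and its log2 fold change of 0.68 had a 95% interval from 0.03 to 1.33 (edgeR adjusted p = 0.0962).

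All 4 long-chain acyl-CoA synthetases were tested, and 1 was called (25%, beside 26.5% of all genes). ACSL4, the form that prefers arachidonic acid and other polyunsaturated fatty acids (chromosome X, 108867473 to 108976632), had 844, 877 and 825 reads in control and 1066, 1064 and 1023 in ADP-CM. It rose from 50.7 ± 2.16 to 57.5 ± 1.69 CPM, a log2 fold change of 0.18 with an SE of 0.0437 (edgeR adjusted p = 0.000639), without overlap of the groups. Its call was lost with DESeq2 and without control replicate 3, where the log2 fold change was 0.15. ACSL1, which is the main form in liver, heart and fat, had 1677, 1754 and 1795 reads in control and 1980, 2098 and 1968 in ADP-CM. The groups of ACSL1 did not overlap, but the log2 fold change was 0.08 and the gene was not called (edgeR adjusted p = 0.0398). For ACSL3, a synthetase found on lipid droplets and the endoplasmic reticulum, the log2 fold change was 0.01 and the 95% interval of the fold ran from 0.975 to 1.04. ACSL5 was near the lower limit of the counts, with 12, 12 and 11 reads in control and 7, 7 and 8 in ADP-CM. Its log2 fold change of -0.79 had a 95% interval from -1.59 to 0.01 and was not called (edgeR adjusted p = 0.117). Per length of transcript, ACSL3 had the highest level of the family in control (61.0 CPM per kb), then ACSL1 (28.04), ACSL4 (10.4) and ACSL5 (0.215), and the SDs of these 4 levels do not overlap.

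Of the 3 perilipins, the proteins that coat lipid droplets, PLIN3 alone had reads enough to be tested. PLIN3, also known as TIP47, moves between the cytosol and newly formed droplets (chromosome 19, 4838353 to 4867706). It had 1589, 1693 and 1712 reads in control and 2043, 1948 and 2116 in ADP-CM. Its level rose from 99.4 ± 1.30 to 111.4 ± 4.59 CPM, a log2 fold change of 0.16 with an SE of 0.0335 (edgeR adjusted p = 6.84e-05). All ADP-CM libraries lay above all control libraries. An unnamed gene on the opposite strand covers 22.5% of the exon bases of PLIN3, and the strand setting of the counting is not stated.

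**Figure D2:**
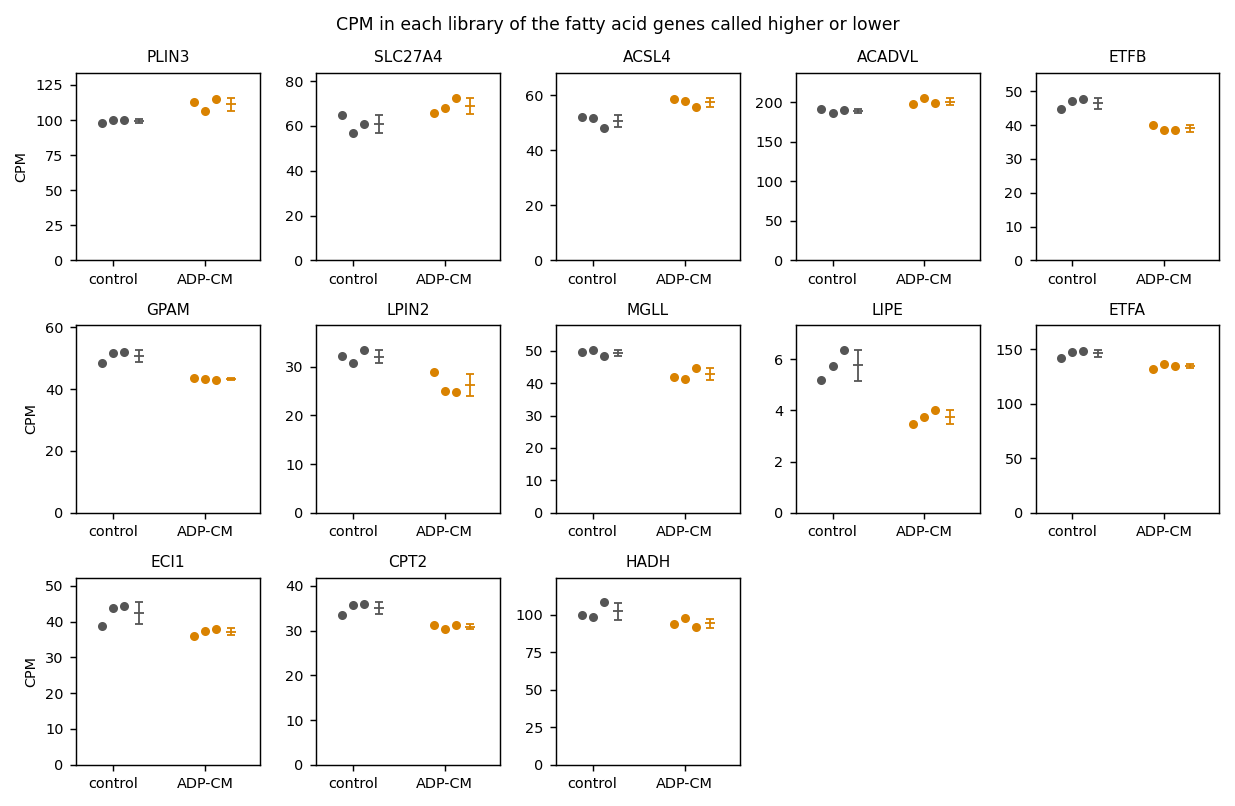
CPM of the 13 called genes in each library (points, replicates 1 to 3 from left to right) with the mean and SD of each group (bars); every axis starts at 0. In every panel the 3 control and 3 ADP-CM libraries do not overlap, and the shift is small against the level except for LIPE, which went from 5.77 to 3.76 CPM.

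In the pathway from glycerol 3-phosphate to triglyceride, all 5 members were lower in every ADP-CM library than in any control library. Among all 12663 tested genes, 2889 lay lower in this way, and 45.5% did not overlap in either direction. The test called 2 of the 5 (40%, beside 26.5% of all genes). Of 8 further tested genes of this pathway, 5 had a log2 fold change above 0 and 3 below. In 4 of the 8 the groups did not overlap, 3 with ADP-CM above and 1 below. GPAM encodes the mitochondrial acyltransferase that starts the pathway (chromosome 10, 113909623 to 113975135). It had 784, 875 and 887 reads in control and 791, 796 and 789 in ADP-CM. From 50.7 ± 2.03 CPM it fell to 43.3 ± 0.403 CPM, a log2 fold change of -0.23 with an SE of 0.0464 (edgeR adjusted p = 6.55e-05). LPIN2 is one of the lipins, the phosphatases that make diacylglycerol (chromosome 18, 2885294 to 3013142). Its reads were 522, 519 and 573 in control and 524, 461 and 457 in ADP-CM, and its level fell from 32.1 ± 1.39 to 26.3 ± 2.29 CPM, with a log2 fold change of -0.29 and an SE of 0.0593 (edgeR adjusted p = 6.6e-05). The ADP-CM libraries are the deeper ones, and before scaling the reads of both genes overlapped between the groups. The same held for MGLL, ETFB, ETFA, ECI1, CPT2 and HADH. Of the genes called lower, LIPE alone had reads that lay apart before scaling. LPIN1, the lipin best known from fat and muscle, had 286, 271 and 307 reads in control and 268, 271 and 289 in ADP-CM, with a log2 fold change of -0.19 (edgeR adjusted p = 0.0409). DGAT1 and DGAT2, the 2 acyltransferases that complete triglyceride, had log2 fold changes of -0.05 and -0.13 and were not called (edgeR adjusted p = 0.421 and 0.0878). Their fold changes had 95% intervals from 0.914 to 1.03 and from 0.843 to 0.995.

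Of the 4 genes of lipolysis 2 were called lower (50%, beside 13% of all genes), and both encode lipases that act after the first. LIPE encodes hormone-sensitive lipase, which splits diacylglycerol (chromosome 19, 42905666 to 42931540). It had few reads, 84, 97 and 109 in control and 63, 69 and 74 in ADP-CM. The level fell from 5.77 ± 0.599 to 3.76 ± 0.272 CPM, a log2 fold change of -0.62 with an SE of 0.142 (edgeR adjusted p = 0.000344), and the 95% interval of the fold ran from 0.535 to 0.793. The groups did not overlap. DESeq2 gave LIPE an adjusted p of 0.0101 and so no call. Without control replicate 3 the log2 fold change was -0.54 and without ADP-CM replicate 1 it was -0.57, in both cases called but under 1.5-fold. MGLL, the monoacylglycerol lipase of the last step (chromosome 3, 127407905 to 127771033), had 806, 848 and 829 reads in control and 761, 758 and 825 in ADP-CM. It fell from 49.5 ± 0.891 to 42.7 ± 1.86 CPM, with a log2 fold change of -0.21 and an SE of 0.0470 (edgeR adjusted p = 0.00024). PNPLA2, the adipose triglyceride lipase that opens the pathway, and its coactivator ABHD5 had log2 fold changes of -0.06 and -0.04 and overlapping groups. Their 95% intervals of the fold ran from 0.889 to 1.04 and from 0.909 to 1.04.

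In the carnitine shuttle 1 of 3 tested genes was called (33.3%, beside 26.5% of all genes). CPT2, the carnitine palmitoyltransferase of the inner mitochondrial membrane, had 544, 604 and 613 reads in control and 565, 555 and 573 in ADP-CM. Its level fell from 35.0 ± 1.32 to 30.9 ± 0.53 CPM, a log2 fold change of -0.18 with an SE of 0.0537 (edgeR adjusted p = 0.00489). This call was one of the less stable: it was lost with DESeq2 and without control replicate 2, control replicate 3, ADP-CM replicate 1 or ADP-CM replicate 2 (adjusted p up to 0.054), while the log2 fold change stayed between -0.21 and -0.17. A pair of genes on the opposite strand together cover 37.7% of its exon bases. CPT1A, the outer-membrane enzyme that sets the rate of entry, had 853, 897 and 903 reads in control and 969, 853 and 867 in ADP-CM. The groups overlapped, since ADP-CM replicate 1 lay above the control libraries, and the log2 fold change of -0.11 was not called (edgeR adjusted p = 0.0631). Without ADP-CM replicate 1 it was -0.17 and was called (edgeR adjusted p = 0.00594). SLC25A20, the carnitine-acylcarnitine carrier, had a log2 fold change of -0.08 and overlapping groups.

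Of the 8 tested genes of mitochondrial beta oxidation, 1 was called higher and 2 lower (37.5% called, beside 26.5% of all genes). ACADVL, the dehydrogenase that opens the cycle for very long chains, had 3101, 3145 and 3257 reads in control and 3578, 3774 and 3656 in ADP-CM. It rose from 189.3 ± 2.65 to 200.7 ± 4.42 CPM, a log2 fold change of 0.08 with an SE of 0.0266 (edgeR adjusted p = 0.00869). ACADVL kept its call in 6 of 12 alternatives, with a log2 fold change of 0.07 to 0.10 over all of them. The call was lost with DESeq2, without any 1 of the control replicates and without ADP-CM replicate 1 or 2. ACADS, the dehydrogenase for short chains, had 157, 171 and 178 reads in control and 147, 151 and 157 in ADP-CM. Its log2 fold change was -0.28, without overlap in CPM, and it was not called (edgeR adjusted p = 0.0211). ACADM, the medium-chain enzyme, had a log2 fold change of 0.05 and overlapping groups. The 3 acyl-CoA dehydrogenases tested thus had 1 call, for the very long chain form.

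Further along the cycle, ECI1, the isomerase that lets unsaturated chains pass, had 631, 741 and 760 reads in control and 652, 687 and 700 in ADP-CM. ECI1 fell from 42.4 ± 3.06 to 37.2 ± 1.05 CPM, with a log2 fold change of -0.19 (edgeR adjusted p = 0.00228). HADH, the dehydrogenase for medium and short 3-hydroxyacyl-CoA, had 1615, 1661 and 1853 reads in control and 1696, 1788 and 1684 in ADP-CM. It fell from 102.1 ± 5.46 to 94.2 ± 3.01 CPM, with a log2 fold change of -0.12 (edgeR adjusted p = 0.00716). Both calls were lost with DESeq2, without control replicate 3 and without ADP-CM replicate 1, that of ECI1 also without control replicate 2 and that of HADH also without ADP-CM replicate 3. Without control replicate 3, whose HADH level is the highest of the 6, the log2 fold change of HADH was -0.07. HADHA, the alpha subunit of the trifunctional protein, had 3964, 4003 and 4150 reads in control and 4105, 4304 and 4245 in ADP-CM. The groups of HADHA did not overlap, but the log2 fold change was -0.06 and was not called (edgeR adjusted p = 0.0347). HADHB, the beta subunit, and ACAA2, the thiolase of the last step, both had a log2 fold change of -0.01 and overlapping groups.

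Of the 3 genes of electron transfer 2 were called, both lower (66.7%, beside 26.5% of all genes called and 13% called lower). These were the subunits of the electron transfer flavoprotein, and ETFDH, the membrane enzyme that takes its electrons, did not pass the test. ETFA, the alpha subunit (chromosome 15, 76480896 to 76604071), had 2313, 2498 and 2541 reads in control and 2398, 2500 and 2479 in ADP-CM. Its level fell from 146.4 ± 3.30 to 134.5 ± 1.95 CPM, a log2 fold change of -0.12 with an SE of 0.0297 (edgeR adjusted p = 0.000707). Without ADP-CM replicate 1 its adjusted p was 0.0109 and the call was lost. ETFB, the beta subunit (chromosome 19, 51848423 to 51869642), had 724, 795 and 816 reads in control and 727, 705 and 709 in ADP-CM. It fell from 46.5 ± 1.63 to 39.0 ± 0.96 CPM, a log2 fold change of -0.25 with an SE of 0.0483 (edgeR adjusted p = 2.19e-05), the smallest adjusted p of the 40 genes. In GENCODE, an unnamed gene on the same strand covers 38.7% of the exon bases of ETFB, and another on the opposite strand covers 24.8%. Part of the ETFB count may therefore belong to them. ETFDH had 557, 551 and 618 reads in control and 598, 616 and 621 in ADP-CM, a log2 fold change of -0.04 and overlapping groups.

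Because these 2 genes encode the subunits of one flavoprotein and were called in the same direction, their proximal promoters are shown. Each is the 250 bases before a RefSeq start in GRCh38.p14, read 5′ to 3′ on the strand of the gene. ETFA lies on the minus strand at chr15:76311470-76311719 and ETFB on the minus strand at chr19:51366389-51366638. Capitals mark the CCAAT box, the motif bound by NF-Y, or its complement ATTGG.

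ETFA: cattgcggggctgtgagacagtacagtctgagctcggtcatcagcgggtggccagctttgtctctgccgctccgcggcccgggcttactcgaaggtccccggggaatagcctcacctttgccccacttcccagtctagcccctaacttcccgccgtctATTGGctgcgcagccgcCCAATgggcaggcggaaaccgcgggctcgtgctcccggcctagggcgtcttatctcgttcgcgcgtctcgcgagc

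ETFB: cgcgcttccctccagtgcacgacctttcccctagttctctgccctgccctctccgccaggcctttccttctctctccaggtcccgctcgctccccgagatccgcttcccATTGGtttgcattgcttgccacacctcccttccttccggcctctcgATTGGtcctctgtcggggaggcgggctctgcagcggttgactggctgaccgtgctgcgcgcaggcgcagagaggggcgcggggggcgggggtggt

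Each of these windows holds 2 matches. A window without the box would not have been printed, so that a match is present was fixed by the choice. The box is common: on either strand it is found in 34.6% of all 35116 promoter windows (250 bases before to 50 after a start) and in 23.2% of the 69 windows of the 42 fatty acid genes that have one. The other motifs searched were the PPAR element DR1 (AGGTCA repeated after 1 base of any kind), a looser form that includes it (AGGNCA repeated in the same way) and the ERR element TNAAGGTCA, also on both strands. None of the 69 windows holds any of these letters, and they are found in 0.0228%, 0.31% and 0.951% of all windows. Binding to these promoters was not measured, and the CCAAT box and the ERR element were chosen for the search after the values were seen.

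None of the 3 peroxisomal genes was called with edgeR or DESeq2, beside 26.5% of all genes with edgeR. Of the 3, 1 had an unadjusted p under 0.05 (edgeR). HSD17B4, the D-bifunctional protein of the peroxisome, had 2267, 2307 and 2403 reads in control and 2437, 2494 and 2290 in ADP-CM, a log2 fold change of -0.08 without overlap in CPM (edgeR adjusted p = 0.0455). ACOX3, an oxidase for branched chains, and ACAA1, the peroxisomal thiolase, had log2 fold changes of 0.03 and -0.04 and overlapping groups.

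Among the PPAR receptors, coactivator and response genes, 0 of 4 tested were called with edgeR or DESeq2, beside 26.5% of all genes with edgeR. Of the 4, 1 had an unadjusted p under 0.05 (edgeR). PPARD, the receptor found in most tissues, had 796, 793 and 855 reads in control and 826, 824 and 823 in ADP-CM. Its CPM was lower in every ADP-CM library (48.7 ± 1.56 against 45.1 ± 0.463), but the log2 fold change of -0.11 missed the threshold (edgeR adjusted p = 0.0539). PPARA, the receptor that drives oxidation genes in liver, had 558, 583 and 622 reads in control and 647, 687 and 604 in ADP-CM, with a log2 fold change of 0.01 and overlapping groups. For PPARGC1A, the coactivator PGC-1alpha, the reads were 191, 160 and 183 in control and 187, 221 and 206 in ADP-CM, with a log2 fold change of 0.07 and overlapping groups. ANGPTL4, a secreted inhibitor of lipoprotein lipase that fatty acids raise through PPARs in many cells, had 59, 47 and 56 reads in control and 59, 64 and 55 in ADP-CM. Its fold of 1.01 had a 95% interval from 0.796 to 1.27. Of 20 genes listed as PPAR targets, which include fatty acid genes described above, 11 could be tested and 1 was called, ACADVL, which is 9.09% beside 26.5% of all genes. The median log2 fold change of the 11 was 0.01. In 3 of the 11 the groups did not overlap, beside 45.5% of all tested genes. Of these 3, ADP-CM lay above in 2 (ACADVL and ACSL1) and below in 1 (HADHA). Of the 4 usual readouts, the 95% interval of the fold reached at most 1.27 for ANGPTL4 and 0.990 for CPT1A, while PLIN2 and PDK4 had too few reads to be tested.

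**Figure D3:**
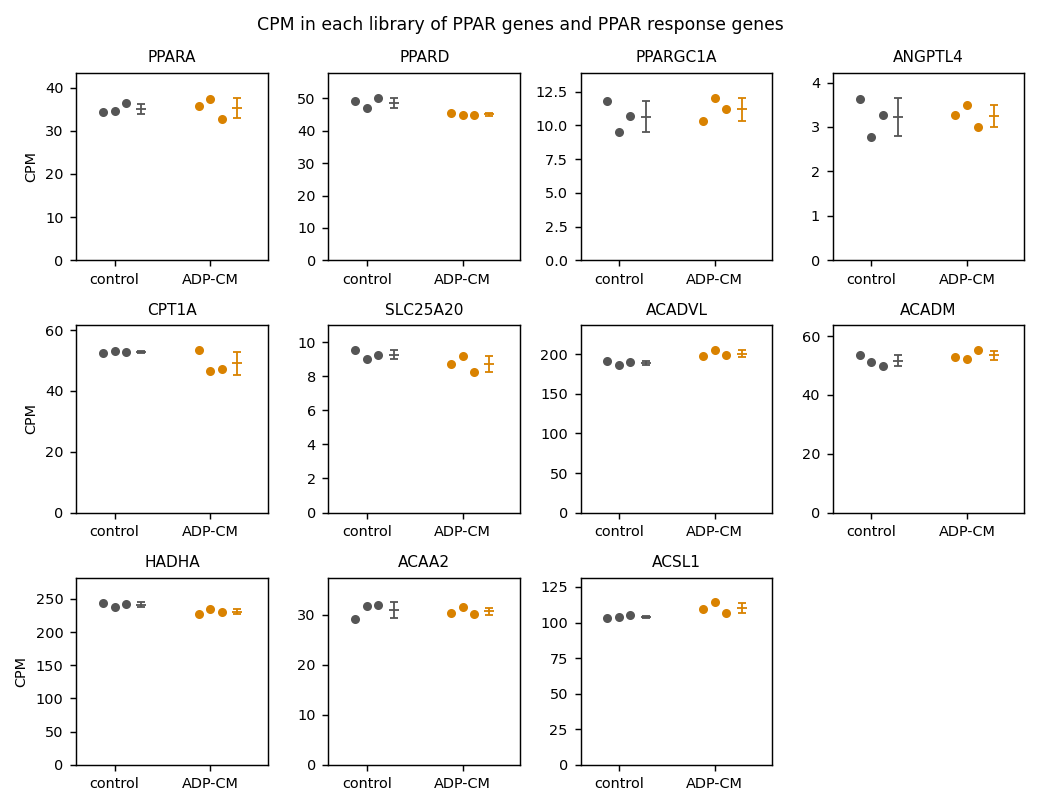
CPM of PPAR receptors, the coactivator PPARGC1A and those of the 50 genes that are listed as PPAR targets and were tested, in each library (points, replicates 1 to 3 from left to right), with the mean and SD of each group (bars); every axis starts at 0. The groups overlap in PPARA, PPARGC1A, ANGPTL4, CPT1A, SLC25A20, ACADM and ACAA2, lie apart with ADP-CM below in PPARD and HADHA and with ADP-CM above in ACADVL and ACSL1, and of these ACADVL alone was called.

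Too few reads for a test were found in 10 genes, and several are the best known of their kind. The transporter CD36 had 0 to 3 reads per library, FABP4 4 to 11, PLIN2 0 to 2, PLIN4 4 to 8, PPARG 0 to 2, PDK4 1 to 7, CPT1B 3 to 7 and ACADL 0 to 2, while FABP3 and FABP5 had no read in any of the 6 libraries. The limit that a count of 0 allows, 3 reads, corresponds to 0.163 to 0.185 CPM in these libraries, and this limit covers counting error only. Fitted without the filter, none of the 8 genes with reads was called (edgeR adjusted p of 0.635 to 0.974). For FABP5 the count says little, because the whole of its transcript has near copies at 5 other places in the genome, with at least 96% identity over 50 bases or more, and reads without a unique position were left out. CPT1B shares 98.1% of its exon bases with the readthrough gene CHKB-CPT1B on the same strand, and reads that fall on 2 genes are not counted for either. PLIN2, a coat protein of droplets in most cells, has no such copies and no exon overlap in the annotation. Its neighbours HAUS6 and DENND4C had 874 to 1182 and 1155 to 1366 reads per library, and why PLIN2 had at most 2 reads was not tested. The RefSeq annotation used for the counting was not used here, so whether it holds PLIN2 whole is not known, and the counts of PLIN2, FABP5 and CPT1B are not read as levels of their RNA.

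**Figure D4:**
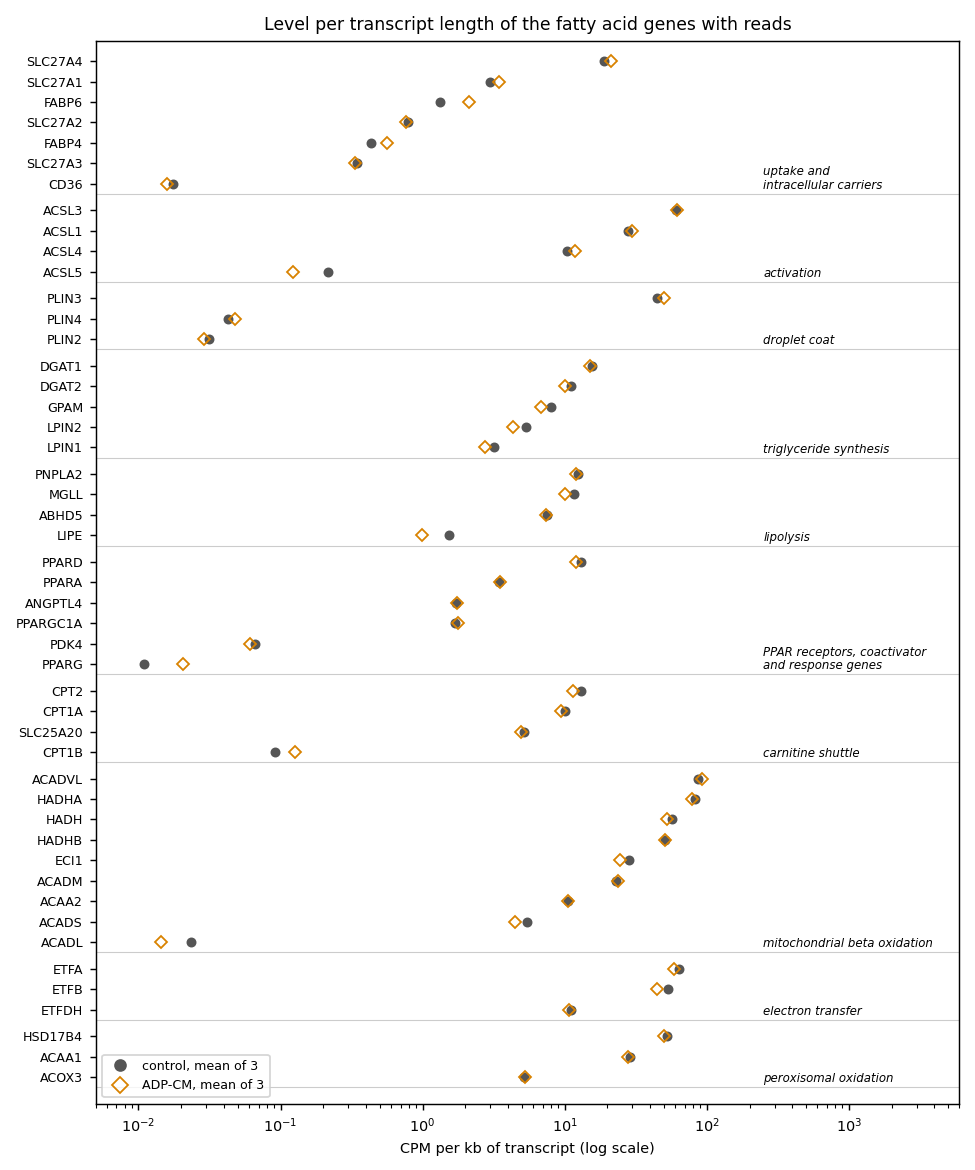
Mean CPM per kb of transcript of the fatty acid genes with reads, in control (filled circles) and ADP-CM (open diamonds), by role, on a log axis. In the transporter and synthetase families 1 or 2 members hold most of the level (SLC27A4, ACSL3 and ACSL1), PPARD lies above PPARA, and PPARG, PDK4 and ACADL lie near the bottom, as do PLIN2 and CPT1B, whose counts are not read as levels.

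Levels between genes are compared per kb of transcript, and as control means in CPM per kb. The highest were ACADVL (86.7), HADHA (82.0), ETFA (63.9) and ACSL3 (61.0), and HADH (56.6), ETFB (53.3), HSD17B4 (52.9) and HADHB (50.9) followed. Among the transporters SLC27A4 stood at 18.8 and SLC27A1 at 2.96. CPT2 was at 12.99 and CPT1A at 10.1. For the receptors the values were 13.04 for PPARD, 3.47 for PPARA and 0.0110 for PPARG. Genes of mitochondrial oxidation and electron transfer were thus 3 of the 4 highest, and the called change of largest size among them was that of ETFB, with a log2 fold change of -0.25.

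**Figure D5:**
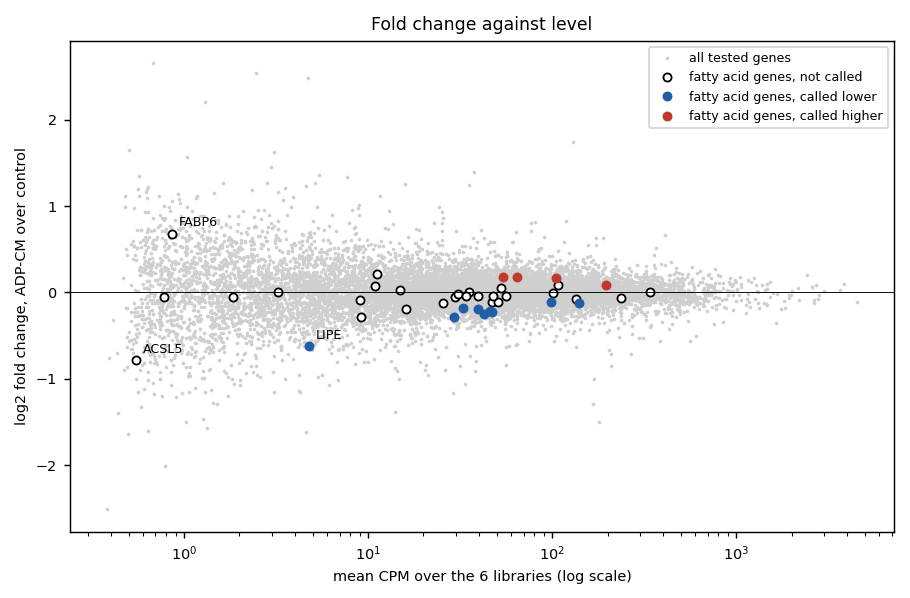
Log2 fold change, ADP-CM over control, against the mean CPM over the 6 libraries (log axis) for all tested genes (grey) and the fatty acid genes (circles; filled where called). The called genes lie within the cloud of all genes, LIPE at the lowest level of them, and the large changes of FABP6 and ACSL5 are at the lowest levels and were not called.

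Beyond the 50, 93 further genes of the same pathways were listed, and 60 were tested. Of these, 19 were called (31.7%, beside 26.5% of all genes), 5 higher and 14 lower, none over 1.5-fold, and the median log2 fold change was -0.03. The largest called change was ACSS2, which makes acetyl-CoA from acetate in the cytosol and nucleus. It had 628, 639 and 722 reads in control and 537, 533 and 562 in ADP-CM, and fell by 0.41 on the log2 scale (edgeR adjusted p = 4.05e-09). FAAH, which hydrolyses fatty acid amides, fell from 9.19 ± 0.579 to 7.20 ± 0.452 CPM (log2 fold change -0.35, edgeR adjusted p = 0.0073). DBI, the acyl-CoA binding protein, fell by 0.27 on the log2 scale, from 223.2 ± 6.21 to 184.7 ± 7.15 CPM (edgeR adjusted p = 1.09e-12). LIPG, the endothelial lipase, fell from 120.4 ± 1.72 to 100.7 ± 1.95 CPM (log2 fold change -0.26, edgeR adjusted p = 9.52e-10).

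In the mitochondrial arm of the wider list 4 of 15 tested genes were called (26.7%, beside 26.5% of all genes), all lower. DECR1, the reductase that lets polyunsaturated chains enter beta oxidation, fell from 63.8 ± 3.10 to 52.0 ± 1.32 CPM (log2 fold change -0.30, edgeR adjusted p = 4.94e-08). ECHS1, the short-chain enoyl-CoA hydratase, fell from 151.3 ± 3.26 to 139.4 ± 2.14 CPM (log2 fold change -0.12, edgeR adjusted p = 0.000868). In the peroxisomal arm 3 of 10 were called (30%, beside 26.5% of all genes), all lower. Among them PHYH, which starts the oxidation of branched phytanic acid, had a log2 fold change of -0.28 (edgeR adjusted p = 0.00151). EHHADH, the L-bifunctional protein of the peroxisome and a PPAR alpha target in liver, had at most 1 read in any library. In contrast to LPIN2, LPIN3, the third lipin, rose from 30.2 ± 0.571 to 35.9 ± 0.358 CPM (log2 fold change 0.25, edgeR adjusted p = 0.000143), and PDK1, a kinase that inhibits pyruvate dehydrogenase as PDK4 does, rose from 18.6 ± 1.16 to 22.8 ± 1.64 CPM (log2 fold change 0.29, edgeR adjusted p = 0.000444). The calls of FAAH, PHYH and PDK1 were lost with DESeq2, and those of ECHS1, PHYH and PDK1 without control replicate 3.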

How the data were processed

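RNA of 3 control and 3 ADP-CM samples of RL95-2 cells was sequenced from stranded poly(A) libraries as 50 bp single reads. The authors mapped them to hg19 with TopHat2 and deposited, unnormalized, the HTSeq read count of each RefSeq gene and library (submitters' processing notes and published methods). Versions and the strand setting are not given in the sources used here. Reads on no gene (10.3% in control, 11.5% in ADP-CM), ambiguous reads (0.719% and 0.714%) and reads without a unique position (20.5% and 20.7%) entered neither library sizes nor tests. Replicates differed by more than sampling noise.

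Deposited counts were normalized by TMM, filtered by filterByExpr with its defaults (12663 of 23228 genes kept) and tested in edgeR 4.0.16 (R 4.3.3) with the quasi-likelihood test and Benjamini-Hochberg adjustment over all genes, at 0.01, as 3 against 3. The common biological coefficient of variation was 1.67%. On simulated data with 200 of 12590 genes changed, edgeR recovered 92 of 100 genes at 1.5-fold with 0 false calls. Only changes of 1.5-fold and 2-fold were simulated, so recovery of smaller changes, which are all calls here but that of LIPE, was not tested. Alternatives were DESeq2 1.42.0, other scalings and filters, a replicate block and leaving out each library. The members and lists were chosen with earlier results of these data known. Reads per library are printed for genes over 1.5-fold, the 20 smallest p-values and the PPAR genes and readouts, and in the wider list the 8 largest called changes and 4 preset genes are named, except that some of these are not reported here. Positions, exon overlaps and transcript lengths came from GENCODE 44 on GRCh37, near copies from blastn, and promoters from RefSeq (GRCh38.p14), where 42 of 50 genes matched.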

Additional observations from a re-analysis of the deposited data

Results flagged for a closer look

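The share of reads that lay on no gene, a part of the tables that no comparison uses, was 11.5% ± 0.0331 in ADP-CM and 10.3% ± 0.0528 in control (SD, n = 3 each).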

How the results depend on the processing

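Of the 13 calls, 5 stood in all 12 alternatives, none changed direction, and 1 gene, CPT1A, was called in an alternative only (without ADP-CM replicate 1). With DESeq2, 6 of 37 members were called and 7 calls were lost, 0 members were called over 1.5-fold, and 10 of 58 wider genes were called, beside 16.5% of all genes (1.27% over 1.5-fold) against 26.5% (2.27%) with edgeR. Leaving out 1 library gave 8 to 12 called members, 0 to 1 over 1.5-fold and 12 to 19 wider genes, with the lowest counts (8, 0 and 12) without control replicate 3; 0 over 1.5-fold was also found without ADP-CM replicate 1. The share of all genes called was then 20.6% to 25.1%, and 20.8% without control replicate 3. The scalings, filters and replicate block gave the same 13 members, and the block changed none of these calls and gave 19 wider genes, 18 of them shared. At an adjusted p under 0.05, 19 of 40 members and 25 of 60 wider genes were called, beside 36.7% of all genes. Other scalings moved the median of all genes by at most 0.00303 on the log2 scale. Same-numbered libraries had correlations of deviations of 0.0565, 0.0303 and 0.0878, all below the limit of 0.1 set for pairing. The numbers were therefore not used to pair the samples. Each library correlated best with its own number, however, so whether the samples are paired is not known.

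Directions changed only in 11 uncalled members, when 1 library was left out. Their log2 fold changes then ranged from -0.22 to 0.17 (SLC27A2), -0.21 to 0.17 (SLC27A3), -0.012 to 0.028 (ACSL3), -0.069 to 0.0015 (ABHD5), -0.036 to 0.060 (PPARA), -0.0045 to 0.15 (PPARGC1A), -0.089 to 0.099 (ANGPTL4), -0.030 to 0.0071 (HADHB), -0.055 to 0.011 (ACAA2), -0.029 to 0.078 (ACOX3) and -0.069 to 0.0027 (ACAA1). The cause was not tested. Depth limits the genes with few reads: the 95% intervals of LIPE, FABP6, ACSL5 and SLC27A3 reach past 1.5-fold. All 40 tested members rest on 1 cell line and 24 h of treatment.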
